A study of Homo sapiens with 3 samples.

Results

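EIF3C and 9 other genes of the translation initiation factor eIF3 were followed in DU145 cells, a human prostate cancer line. The 10 genes (EIF3C, EIF3CL, EIF3A, EIF3B, EIF3D, EIF3E, EIF3F, EIF3H, EIF3I and EIF3L) were taken by name from the 58735 genes listed. EIF3C was chosen by its lower counts in both libraries labelled as PD-L1 knockdown. Its own difference is described without a test, and the question was whether the other subunits followed it. The remaining 4 of the 14 eIF3 genes (EIF3G, EIF3J, EIF3K and EIF3M) and 33 other initiation factors were described beside them.

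The control is titled DU145 cells, Knockdown, Control. The methods name the empty pLKO.1 vector as the control of the stable lines, but their RNA-seq section names only DU145. The 2 other libraries, labelled Knockdown1 and Knockdown2, came from DU145 with lentiviral shRNA 1 or shRNA 2 against PD-L1. PD-L1 is the immune checkpoint ligand encoded by CD274. The stable lines were selected with puromycin, and whether the control library came from such a line is not stated in the RNA-seq section. Poly(A) RNA was sequenced. Each condition was thus 1 library per construct, and the control had no replicate. The labels name DMEM and the methods EMEM, the series text names the thyroid line BCPAP, and the count heading of the control names RBM45. The methods list 1 hairpin sequence only.

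The count totals were 14733088 in the control and 14738298 and 15786457 in the libraries labelled Knockdown1 and Knockdown2. CD274 had 204, 213 and 224 counts in that order, so the counts of the targeted RNA were not lower. After scaling for library size, its ratio to the control was 1.05 (counting interval 0.861 to 1.28) in Knockdown1. In Knockdown2 it was 1.03 (0.845 to 1.25), so a small fall lies within counting error in either library. The paper reports that PD-L1 protein was checked by western blot in its knockdown lines, DU145 included. Protein cannot be read from these counts, and the libraries are named below by their labels. Knockdown1 and Knockdown2 were not 1 library deposited under 2 names, since a chi-square test of their counts gave 5.57 per degree of freedom over 18413 genes. The epithelial markers KRT8, KRT18, KRT19, EPCAM and CDH1 were counted in every library (755 counts or more each). The prostate markers KLK2, KLK3 and TMPRSS2 had 0 counts in all 3 libraries. The thyroid and lung factor NKX2-1 had 1833, 2118 and 2590 counts. Markers of blood, endothelial and stromal cells summed to 103, 107 and 153 counts, nearly all from COL1A1, with CD3E at 0 throughout. How far any of these differences bears on the eIF3 genes was not tested.

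eIF3 is the largest of the initiation factors. It binds the small ribosomal subunit, holds it ready for the initiator tRNA and the mRNA, and keeps it apart from the large subunit. Its core is built from subunits with a PCI domain (EIF3A, EIF3C, EIF3E, EIF3K, EIF3L and EIF3M) and subunits with an MPN domain (EIF3F and EIF3H), the same architecture as the proteasome lid and the COP9 signalosome. EIF3B, EIF3G and EIF3I form a mobile module, EIF3D can bind the cap of some mRNAs, and EIF3J is loosely attached. EIF3C lies in the core, where it contacts EIF1 and EIF5 during the choice of the start codon.

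EIF3C (ENSG00000184110) lies on the plus strand of chromosome 16 from 28688558 to 28735730 (GRCh38). EIF3CL (ENSG00000205609), its copy, lies on the minus strand of the same chromosome from 28379579 to 28403879. The transcripts EIF3C-201 and EIF3CL-201 have 21 exons each, and their coding sequences of 2739 and 2742 bases were identical except for 3 bases. EIF3CL has 1 more GAG codon, for glutamate, in a run of 5 where EIF3C has 4. The stretch around this run, in exon 9, is shown because it is the only coding difference by which a read could tell the 2 genes apart. It covers coding bases 827 to 916 of EIF3C (chr16:28723214-28723303, plus strand) and 827 to 919 of EIF3CL (chr16:28392000-28392092, minus strand), with the additional codon in capitals. Its place within the run is arbitrary.
EIF3C: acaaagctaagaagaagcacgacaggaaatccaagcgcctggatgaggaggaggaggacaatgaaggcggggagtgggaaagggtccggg
EIF3CL: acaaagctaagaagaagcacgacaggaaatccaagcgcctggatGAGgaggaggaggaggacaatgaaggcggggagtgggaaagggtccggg

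Of the 3115 words of 31 bases in EIF3C-201, 79 were in no transcript of another gene. These were 63 of the 156 words in the 5′ UTR, 16 of the 2709 in the coding sequence, and 0 of the 190 in the 3′ UTR. At 100 bases, 148 of 3046 words (4.86%) were found in EIF3C only. Reads from nearly the whole mature mRNA therefore match both genes equally well. Over all annotated transcripts, with retained introns included, EIF3C shared 48.4% of its words with other genes and EIF3CL 98.5%. Among the other subunits, EIF3L shared 51.7%, above all with AL022311.1 (37.0%), which overlaps it on the same strand, and the remaining 11 shared between 0.302% and 16.3%. Whether the counting kept or dropped reads with several matches is not given in the sources used here, so the division of reads between EIF3C and EIF3CL is uncertain.

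EIF3C was counted 1282 times in the control, against 358 and 413 times under the labels Knockdown1 and Knockdown2. Both libraries lay far below the control and close to each other. The paper reports the opposite direction from its RT-qPCR, with EIF3C significantly higher after PD-L1 knockdown. It presents this RT-qPCR as bearing out its own RNA-seq, though its text gives no RNA-seq direction for EIF3C by itself. The reason for the opposite directions was not tested. In bulk RNA, fewer cells with this mRNA and less of it per cell cannot be told apart. The ratio to the control was 0.280 (95% counting interval 0.249 to 0.316) and 0.301 (0.269 to 0.336), after TMM scaling for library size. These intervals, like all below, are exact intervals for counts and cover counting error only. The log2 fold change of the 2 libraries against the control was -1.78 (standard error 0.14), and no gene of the 10861 averaging 100 counts or more had a lower one. Among the 3801 genes averaging 1000 counts or more the lowest log2 fold change was -0.62.

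EIF3CL, whose product would differ from that of EIF3C by a single glutamate, had 114, 101 and 108 counts. Its ratio to the control was 0.890 (0.674 to 1.17) and 0.885 (0.674 to 1.16), and its log2 fold change, -0.17 with a standard error of 0.26, did not pass edgeR's quasi-likelihood test (adjusted p = 0.844). Because EIF3C was lower and EIF3CL hardly so, EIF3C made up 91.8% of the counts of both genes in the control (exact binomial interval 90.3 to 93.2), but 78.0% (73.9 to 81.7) and 79.3% (75.5 to 82.7) in the libraries labelled Knockdown1 and Knockdown2. The sum of both genes, which does not depend on how shared reads were divided between them, was 1396 counts in the control, 459 and 521. Its ratio to the control was 0.330 (0.297 to 0.367) and 0.349 (0.315 to 0.386), with a log2 fold change of -1.56. Reads that match both genes and were left uncounted are in neither value.

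**Figure D1:**
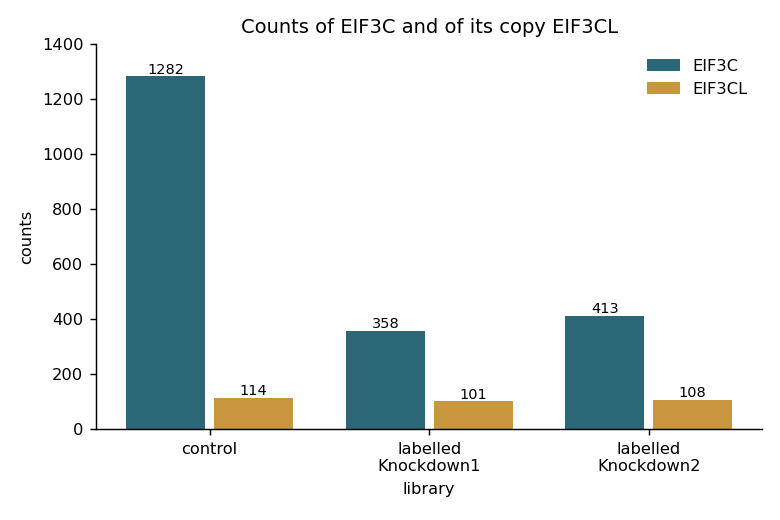
Counts (vertical axis, from 0) of EIF3C and of its near-identical copy EIF3CL in each of the 3 libraries, 1 bar per gene and library. EIF3C stood at 1282 counts in the control and at 358 and 413 in the libraries labelled Knockdown1 and Knockdown2, whereas EIF3CL stood at 114, 101 and 108.

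None of the other 9 genes passed the test. All 10 genes had enough counts to be tested, and 0 of the 9 other than EIF3C were called higher or lower at an adjusted p under 0.05 by edgeR's quasi-likelihood test (1 at an unadjusted p under 0.05), beside 0.353% of all 19849 genes tested (0.247% higher and 0.106% lower, and 11.7% at the unadjusted p). DESeq2 and limma-voom also called 0 of the 9, with 0 and 1 at an unadjusted p under 0.05. The 4 remaining subunits gave 0 calls as well. For the 8 genes other than EIF3C and EIF3CL the log2 fold changes ran from -0.04 to 0.24 with a median of 0.03, and 6 of the 8 were above 0. Over all genes tested the median was 0.00, and the spread among the 8 (standard deviation 0.10) was no wider than that among the 3801 genes averaging 1000 counts or more (0.18).

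The depth was sufficient to see a difference of the size of EIF3C's in any of the 12 subunits other than EIF3C and EIF3CL, which had 1178 to 9912 counts per library. Their ratios to the control ran from 0.849 to 1.41 over both libraries, and the lowest bound among the 24 counting intervals was 0.797, for EIF3J. No interval of these 12 genes thus reached down to the intervals of EIF3C. EIF3C was picked for its fall, and no gene averaging 1000 counts or more had a log2 fold change below -0.62. A gap to EIF3C was therefore to be found for any genes of this depth and is not particular to the subunits. Both ratios of a gene share the single control library, and they do not count as independent.

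**Figure D2:**
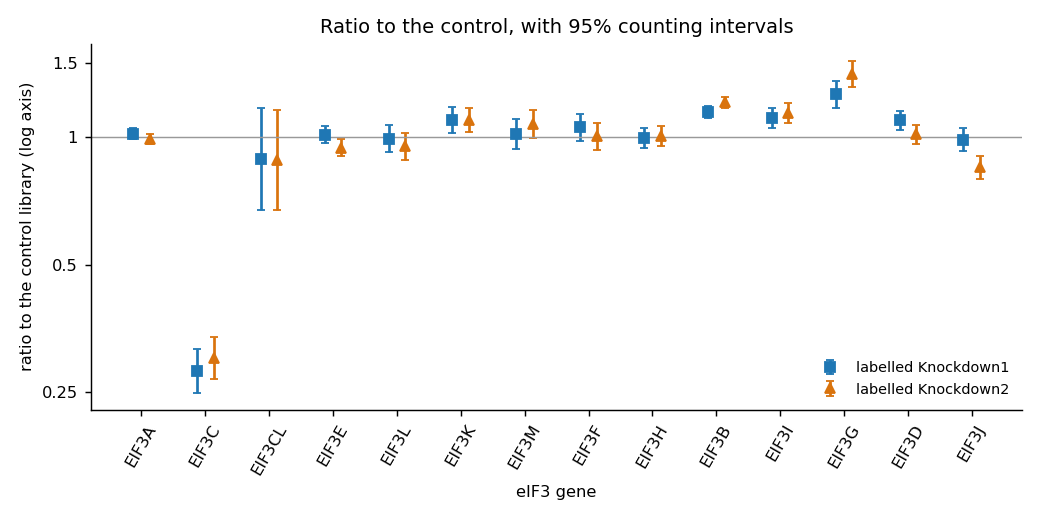
Ratio of each of the 14 eIF3 genes to the control library (vertical axis, log scale), with 95% counting intervals, in the libraries labelled Knockdown1 (squares) and 2 (triangles). EIF3C stood at 0.280 and 0.301, while the ratios of the 12 subunits other than EIF3C and EIF3CL lay between 0.849 and 1.41.

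Among the other PCI subunits, EIF3A, the largest and the scaffold on which the complex is built, had 9354, 9497 and 9912 counts. Its ratios of 1.02 (0.991 to 1.05) and 0.990 (0.962 to 1.02) put all 3 libraries at about the same level. EIF3E, which was first described as the INT6 gene product, had 3379, 3416 and 3420 counts, with ratios of 1.01 (0.968 to 1.06) and 0.945 (0.901 to 0.992). EIF3L, with 1496, 1479 and 1525 counts, was likewise at the control's level (0.993 and 0.952, both intervals holding 1). EIF3K, a small subunit that joins the complex through EIF3L, had 1586, 1735 and 1865 counts. Its ratios were 1.10 (1.03 to 1.18) and 1.10 (1.03 to 1.18), above the control by more than counting error. EIF3M had 1178, 1192 and 1356 counts (1.02 and 1.08). The log2 fold changes of these 5 genes lay between -0.04 and 0.14, and none passed the test.

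The MPN subunits stayed at the level of the control. EIF3F had 1378, 1448 and 1485 counts, with ratios of 1.06 (0.980 to 1.14) and 1.01 (0.935 to 1.08). EIF3H had 2598, 2580 and 2803 counts, with ratios of 0.997 (0.944 to 1.05) and 1.01 (0.955 to 1.06). All 4 intervals held 1.

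The highest mean ratios to the control belonged to the mobile module of EIF3B, EIF3I and EIF3G. EIF3B, which carries an RNA recognition motif and a beta propeller (chromosome 7, 2354086 to 2380745), had 6984 counts in the control and 7969 and 9047 in the libraries labelled Knockdown1 and Knockdown2. Both lay above the control, at ratios of 1.15 (1.11 to 1.18) and 1.21 (1.17 to 1.25), with a log2 fold change of 0.24 and a standard error of 0.11 (adjusted p = 0.373, edgeR). EIF3I, a WD-repeat protein, had 2516, 2787 and 3076 counts, at ratios of 1.11 (1.05 to 1.18) and 1.14 (1.08 to 1.20), and its log2 fold change of 0.17 had a standard error of 0.12 (adjusted p = 0.595, edgeR).
EIF3G, an RNA-binding subunit (chromosome 19, 10115017 to 10119918), had 1283, 1613 and 1942 counts. Its ratios of 1.26 (1.17 to 1.36) and 1.41 (1.32 to 1.52) were the highest of the complex, with a log2 fold change of 0.42 and a standard error of 0.13 (unadjusted p = 0.000955 and adjusted p = 0.115, edgeR). All 3 genes of the module were thus above the control by more than counting error in both libraries, as was the PCI subunit EIF3K. EIF3G and EIF3B were under an unadjusted p of 0.05 (0.0322 for EIF3B), and neither passed after adjustment over all genes tested.

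Counting error alone is a low bar for genes at this depth. Among the 3801 genes averaging 1000 counts or more, 31.4% had an interval above 1 and 26.2% an interval below 1 in the library labelled Knockdown1, and 37.1% and 35.6% did so in the library labelled Knockdown2. Of the 8 members at issue, 3 (EIF3B, EIF3D and EIF3I) were above and 0 below in the first of these, and 2 (EIF3B and EIF3I) above and 1 (EIF3E) below in the second. EIF3B and EIF3I were above in both libraries, as were 25.2% of these genes, while 21.4% were below in both and none of the 8 was. The shares above 1 were near the background, and those below 1 were smaller than it (0 and 1 of 8 in the single libraries, 0 of 8 in both), a difference that was not tested.

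EIF3D, the cap-binding subunit, had 2802, 3062 and 3049 counts, with ratios of 1.10 (1.04 to 1.16) and 1.02 (0.965 to 1.07). EIF3J, the loosely attached subunit (chromosome 15, 44537057 to 44563029), had 2034, 1998 and 1849 counts, with ratios of 0.987 (0.927 to 1.05) and 0.849 (0.797 to 0.905). It was thus below the control only in the library labelled Knockdown2, and its log2 fold change, -0.12 with a standard error of 0.12, did not pass the test (adjusted p = 0.727, edgeR).

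The fold changes of the subunits went with the base composition of their transcripts, with exceptions. In the longest coding transcript, GC content was 60.3% for EIF3G and 56.7% for EIF3B, against 38.8% for EIF3J, 38.2% for EIF3E and 38.0% for EIF3M. EIF3M, the lowest in GC, had a log2 fold change above 0 (0.06), and EIF3L, at 49.6% GC, had 1 below 0 (-0.04). Across the 12 subunits other than EIF3C and EIF3CL, Spearman's rho between GC content and log2 fold change was 0.74, given as a description since the genes share their libraries and are not independent. Among 3766 genes averaging 1000 counts or more rho was 0.80, and the median log2 fold change was 0.19 for the 1075 genes of 55% GC or more and -0.14 for the 1406 genes under 45%. The GC content of EIF3C was 54.6%. The part of GC content in the values of the other subunits was not tested. This description was added after the values were seen.

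Levels between genes were compared per length, as FPKM, which the authors calculated from the counts and a listed length. In the control, EIF3I was the highest of the 14 eIF3 genes at 98.2 FPKM, followed by EIF3A (88.7), EIF3B (52.3), EIF3D (46.4), EIF3J (42.9), EIF3K (38.2), EIF3E (37.9), EIF3H (27.2), EIF3G (24.8), EIF3L (23.5), EIF3C (12.4), EIF3M (10.7), EIF3F (9.84) and EIF3CL (2.48). With 1 control library there is no spread between controls by which to separate neighbours in this order. The order also rests on the listed lengths. EIF3C was at 3.47 and 3.74 FPKM in the libraries labelled Knockdown1 and Knockdown2 and went from rank 11 to rank 13 in both, above EIF3CL at 2.21 FPKM in each. The 4 most abundant genes kept their ranks.

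**Figure D3:**
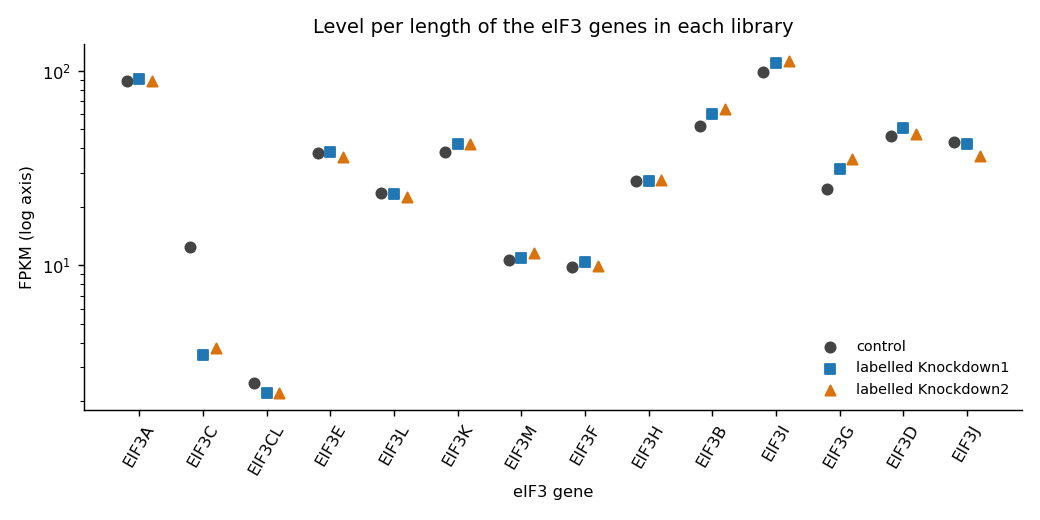
FPKM (vertical axis, log scale) of the 14 eIF3 genes in the control (circles) and in the libraries labelled Knockdown1 (squares) and 2 (triangles), with the PCI subunits and EIF3CL at the left, then the MPN subunits, the module of EIF3B, EIF3I and EIF3G, EIF3D and EIF3J. EIF3C moved from 12.4 to 3.47 and 3.74 FPKM.

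The subunits of the complex are thought to be present in equal numbers as proteins, whereas FPKM measure RNA. In the control, EIF3C reached 29.4% of the median FPKM of the other 8 members (42.1). Over the listed lengths, EIF3M (10.7) and EIF3F (9.84) were lower still. These lengths are 7428 bases for EIF3M and 9431 for EIF3F, whereas the transcript EIF3F-201, with 1071 coding bases, has 1254. The place of EIF3F below EIF3C thus depends on the length used. EIF3C reached 7.76% and 8.97% of that median in the libraries labelled Knockdown1 and Knockdown2. The deposited files list 6982 bases for EIF3C, which counts every annotated exon and retained intron, whereas its longest coding transcript has 3145. Over the longest coding transcript of each gene, a length chosen after the values were seen, EIF3C would be at 27.5 FPKM in the control and the median of the other 8 members at 91.2, so that EIF3C reached 30.1% of it, and 7.99% and 9.04% in the other libraries. This choice of length thus hardly moved these percentages. For EIF3F it took the transcript of 7540 bases, and shorter transcripts such as EIF3F-201 were not tried. EIF3C counts per 1000 counts of the other 8 members, a measure that uses no length and no library total, were 42.0, 11.1 and 12.0. Any reads left uncounted because they match EIF3CL as well would be missing from all of these EIF3C values, and their number is not known.

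The library labelled Knockdown2 was also set against that labelled Knockdown1, a comparison that does not use the control. No difference in EIF3C was detectable between them, at a ratio of 1.07 with an interval of 0.929 to 1.24, nor in EIF3CL at 0.994 (0.751 to 1.32). EIF3C was picked for lower counts in both of these libraries, so their likeness in EIF3C is partly built into that choice. Of the 8 other members, EIF3B was above 1 (1.06, 1.02 to 1.09) and EIF3A (0.971, 0.943 to 0.998), EIF3D (0.926, 0.880 to 0.974) and EIF3E (0.931, 0.888 to 0.976) were below. That is 1 above and 3 below, beside 25.7% and 26.9% of genes averaging 1000 counts or more. EIF3G was higher (1.12, 1.05 to 1.20) and EIF3J lower (0.861, 0.807 to 0.917) in the library labelled Knockdown2. These are comparisons of 2 libraries, not of the hairpins.

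The 33 other initiation factors were tested in full and 0 were called by edgeR's test, with 2 lower and 0 higher at an unadjusted p under 0.05. DESeq2 and limma-voom called 0 as well, with 0 and 3 at an unadjusted p under 0.05. Their log2 fold changes ran from -0.38 to 0.26 with a median of -0.05, 15 above 0 and 18 below. The lowest was EIF1B, a paralog of the start codon factor EIF1, with 331, 269 and 256 counts (log2 fold change -0.38, standard error 0.18, adjusted p = 0.388, edgeR). Next was EIF4G3, a relative of the scaffold EIF4G1, with 1557, 1312 and 1357 counts (-0.27, standard error 0.13, adjusted p = 0.376, edgeR).
EIF1 itself, which binds EIF3C on the ribosome, had 6218, 6892 and 6604 counts (log2 fold change 0.07), and EIF5, another partner of EIF3C, had 7191, 6929 and 7034 (-0.09). EIF4G1, through which eIF3 is joined to the cap complex, had 15443, 16342 and 19427 counts (0.16). The highest value was that of the helicase EIF4A1 (0.26), which is uncertain because it had only 73, 88 and 92 counts and overlaps the readthrough gene SENP3-EIF4A1. DENR, a factor of ribosome recycling and reinitiation, was counted 2168, 2215 and 1601 times, lowest under the label Knockdown2. Its partner MCTS1 had 294, 242 and 266.

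**Figure D4:**
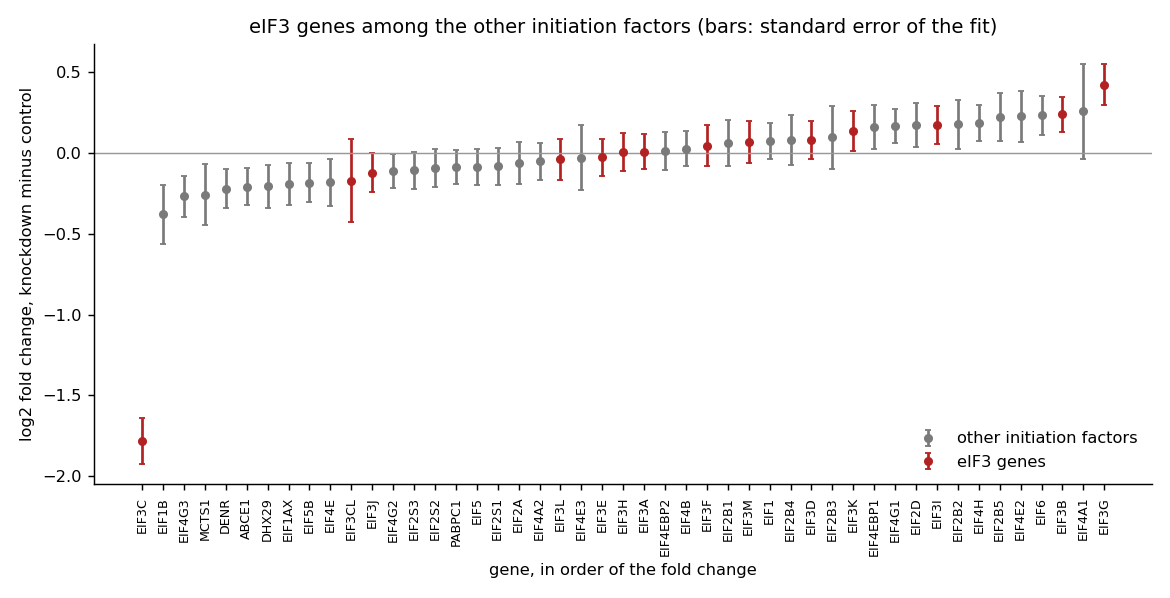
Log2 fold change of Knockdown1 and Knockdown2 against the control (vertical axis) for the 14 eIF3 genes (red) and 33 other initiation factors (grey), in order of the fold change, with bars for the standard error of the fit. EIF3C stood apart at -1.78, and all others lay between -0.38 and 0.42.

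The genes around EIF3C were not lower with it. The genes AC145285.4 and CDC37P1, which overlap EIF3C on the other strand, had 5, 6 and 16 and 4, 7 and 20 counts, and the microRNA gene MIR6862-2 had 0. These counts are small beside those of EIF3C, but reads dropped for lying in 2 genes would not show in them. The nearest genes on either side, NPIPB8 and AC145285.5, had no more than 9 counts in any library, nor did NPIPB9 behind the latter. Genes reaching within 500 kb averaging 50 counts or more were chosen after the values were seen. Leaving out EIF3C and EIF3CL there were 10, with log2 fold changes from -0.01 for ATXN2L to 0.43 for SULT1A1, and 0 were called (edgeR, adjusted p under 0.05). ATXN2L, which encodes an ataxin-like RNA-binding protein, had 3203, 3264 and 3280 counts. TUFM, the mitochondrial elongation factor Tu, had 3153, 3562 and 4061.

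**Figure D5:**
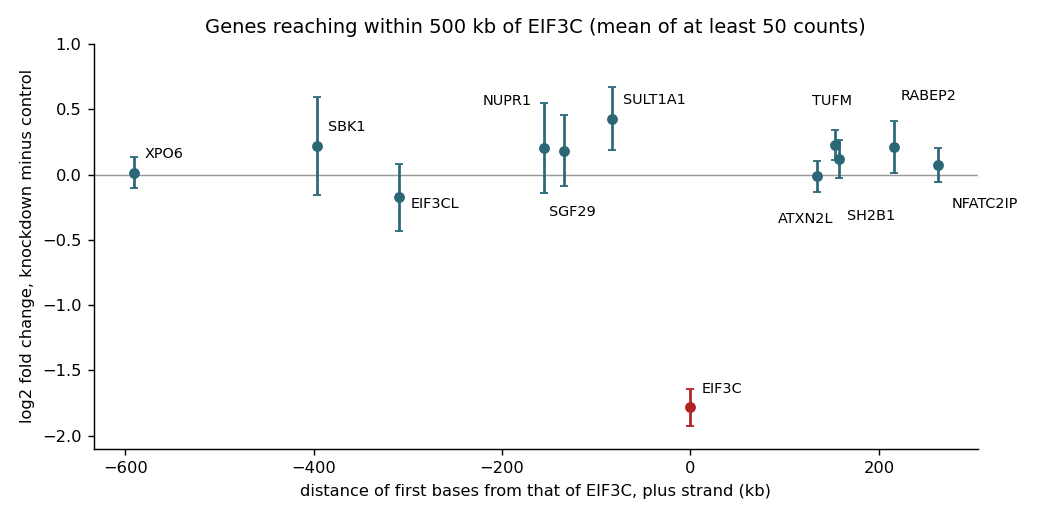
Log2 fold change of Knockdown1 and Knockdown2 against the control (vertical axis), with bars for the standard error, for genes averaging 50 counts or more that reach within 500 kb of EIF3C, by the distance of their first base from that of EIF3C in kb. EIF3C stood at -1.78 and EIF3CL at -0.17, and the 10 other genes lay between -0.01 and 0.43.

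The 5 genes whose pattern was most like that of EIF3C, by the distance between both log2 ratios to the control among genes averaging 100 counts or more, were GPR89B, AC004656.1, GTF2IP1, TCAF1P1 and CBS. Only GPR89B, which encodes a Golgi pH regulator, was close to it (396, 131 and 108 counts, ratios of 0.332 and 0.255). For GPR89B, too, the paper reports a higher level after PD-L1 knockdown by RT-qPCR, given there as a check on its RNA-seq. CBS, the cystathionine beta-synthase of homocysteine metabolism, had 598, 251 and 487 counts, and the other 3 had ratios between 0.480 and 0.667. These 5 were found from 2 ratios that share 1 control, and nothing about shared control of the genes follows from it.

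Shared sequence was frequent among these genes, a description added after the values were seen. Of the 5, 4 shared most of their 31-base words with another gene: GPR89B 80.3% with GPR89A, GTF2IP1 91.7% with GTF2I, TCAF1P1 93.1% with TCAF1, and CBS 55.9% with CBSL. AC004656.1 shared 0%. The copies differed in their own counts. GPR89A had 229, 233 and 443 (log2 fold change 0.50), GTF2I 1827, 1640 and 1736 (-0.16), TCAF1 941, 782 and 678 (-0.41) and CBSL 78, 69 and 13 (-0.96). Among 10859 genes averaging 100 counts or more, 1522 shared 20% or more of their words with another gene. The log2 fold change went beyond 1 in either direction for 10 of the 10859, and 8 of these 10, EIF3C included, were among those 1522. It was below -1 for EIF3C and GPR89B only. The standard deviation of the log2 fold change was 0.22 in genes that shared less than 20%, 0.26 in those that shared 20% to less than 80% and 0.38 in the 115 that shared 80% or more. Whether the assignment of shared reads contributed to the value of EIF3C was not tested.

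The other subunits have their own overlaps. EIF3B overlaps SNX8 on the other strand, and SNX8 had 1241, 1395 and 1833 counts, higher in the same libraries as EIF3B. EIF3J overlaps SPG11 (1742, 1596 and 1729 counts) and EIF3G overlaps P2RY11 (236, 267 and 278 counts) on the other strand. Whether strand was used in the counting is not given in the sources used here, so these values are uncertain to that extent. Of 11 processed pseudogenes of eIF3 subunits, 4 had any count. The most counted was EIF3FP3, with 64, 51 and 66 counts, against 1378 or more for EIF3F.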

How the data were processed

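RNA-seq of 3 libraries (1 control, 2 labelled PD-L1 knockdown) was used. For each library the authors deposited counts of reads per gene without normalization, and the authors' FPKM, which were checked to be the count divided by the listed length and a constant of the library. The submitters' processing notes name Bowtie2 2.0.6, TopHat2 2.0.9, Cufflinks 2.1.1 and Cuffdiff 2.1.1, without their roles. The counting tool, its use of strand and its treatment of reads with several matches are not given in the sources used here. All 58735 gene positions were identical to GENCODE v29 (GRCh38), from which transcripts were taken.

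The 19849 genes whose 3 counts summed to 10 or more were tested with edgeR 4.0.16 (TMM, quasi-likelihood test) in R 4.3.3, with Benjamini-Hochberg adjustment over all of them and calls at an adjusted p under 0.05. Because the control has no replicate, 1 residual degree of freedom was left, and the spread (common dispersion 0.00719) comes from the 2 knockdown-labelled libraries. Nothing says that libraries came from separate cultures of a construct, so p-values measure only the spread between these libraries. DESeq2 1.42.0, limma-voom (limma 3.58.1), other scalings and another filter were alternatives. Ratios between libraries have exact 95% counting intervals, which cover counting error only, since PCR copies cannot be told from molecules. A gene at 0 counts could be present at up to 3 counts, or 0.190 to 0.204 CPM.

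Named were the 10 members, the 4 remaining subunits, 33 other initiation factors (described by counts; the extremes and partners of EIF3C), genes sharing at least 20% of 31-base words with EIF3C or overlapping it, pseudogenes of the subunits, the genes on either side, CD274, and the 5 genes most like EIF3C by Euclidean distance of both log2 ratios (CPM, prior count 2). DENR, MCTS1, EIF4G1, copies of the genes like EIF3C, overlapping partners of other subunits and genes within 500 kb were named after their values were seen. The members and lists were chosen with earlier results of these data known. Some markers that were counted are not reported here.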

Additional observations from a re-analysis of the deposited data

How the results depend on the processing

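No paired analysis was possible because the control has 1 library, so the groups share fewer than 2 replicate numbers. Of 72 log2 fold changes of the 10 members recomputed under other settings, 67 were classed as the same. These kept their direction, and the 45 of them that carry a test also kept their side of the threshold. The other 22 (of EIF3C, or without 1 library) are values with no test. The value of EIF3C summed with EIF3CL kept its direction too but moved in size, and it is not among the 67. The log2 fold changes of EIF3A (0.01), EIF3E (-0.03) and EIF3H (0.00) crossed 0 when 1 library was left out, to -0.01, 0.02 and -0.0037. The number of genes called over all tested genes was 70 with edgeR, 6 with the DESeq2 Wald test and 42 with limma-voom, and the cause was not tested. With every scaling, filter and tool, 0 of the 9 eIF3 members other than EIF3C and 0 of the 33 other initiation factors were called. The log2 fold change of EIF3C ran from -1.83 to -1.73 when either library labelled PD-L1 knockdown was left out and was -1.56 when its counts were summed with those of EIF3CL. That of the sum ran from -1.60 to -1.52, and the median of the 8 other members from 0.01 to 0.05. The log2 fold change of EIF3H changed sign with library totals in place of TMM (-0.00021), at a size far below its standard error. As FPKM rather than counts, EIF3C made up 83.3%, 61.1% and 62.9% of both copies in the control, Knockdown1 and Knockdown2. Depth did not limit the comparison for the subunits other than EIF3CL, whose roughly 100 counts leave a ratio as low as 0.674 within its interval. What limits it is the single control library: a control culture with an unusual EIF3C value and a difference of condition cannot be told apart.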
